A study of Rattus norvegicus with 27 samples.

Results

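The reactive astrocyte genes followed here across the 8 groups of a rat hippocampal ischemia series were a given list of 9 genes. The list was not set by a threshold on these values, but it was chosen with earlier results of these data known. They were Vim, Gfap, Timp1, S100a10, Osmr, Cd44, Anxa2, Anxa3 and Aspg, each taken from the brightest probe set that carries only that symbol in the platform annotation. All 9 had 1 such probe set, out of 18166 genes with one on the array. Of them, 8 passed the filter on dim genes that left 12716 genes for testing. Osmr, with a mean over all arrays of 5.11 on the log2(intensity + 16) scale, lay below the limit of 5.39 and was left out of the main tests. Of the 8 tested genes, 3 (Timp1, Cd44 and Anxa2) had control means below that limit and passed it through the ischemic arrays.

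Astrocytes respond to injury of the brain with reactive astrogliosis, in which the cells enlarge, add intermediate filaments and alter what they secrete and how they contact the matrix. GFAP and vimentin form the filaments of the reactive cell, and signalling from cytokine receptors that share the subunit gp130, through JAK kinases to STAT3, is a known inducer of GFAP. After global ischemia the pyramidal neurons of CA1 die after a delay while those of CA3 largely survive, and astrocytes react in both regions. Most of the 9 genes are not astrocyte-specific: vimentin, TIMP1, CD44, S100A10 and the annexins are also made by vascular, meningeal or immune cells.

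The groups came from male Long Evans rats that underwent complete global brain ischemia at normal body temperature, by carotid occlusion with low blood pressure, for 10 min and were then reperfused for 8 h (8R), or that had a sham operation (NIC, non-ischemic control). CA1 and CA3 were dissected, the tissue of 5 rats was pooled for each replicate, and a supernatant freed of mitochondria was split into total RNA (20% of it) and polysome RNA (a pellet from the rest, spun through a sucrose pad). The 8R groups held 4 pools in CA1 total RNA, 3 in CA1 polysome RNA, 4 in CA3 total RNA and 4 in CA3 polysome RNA, and each of the 4 NIC groups held 3, giving 27 Affymetrix Rat Gene 2.0 arrays. Every array was labelled from an equal mass of RNA, so each value is a share of the total or polysome RNA that was labelled. Fewer cells of a type therefore cannot be told apart from less RNA per cell.

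In NIC total RNA the labelled regions differed in region markers. Wfs1, a CA1 pyramidal marker, averaged 600.1 ± 74.8 in NIC CA1 and 181 ± 6.28 in NIC CA3 (intensity, SD, n = 3 each), and Plagl1, a CA3 marker, averaged 33.9 ± 9.86 in NIC CA1 and 194 ± 13.7 in NIC CA3. Plagl1 differed the most of the 8 CA3 markers listed. Homer3 (140 ± 8.34 and 123 ± 14.4) and Cdh24 (45.1 ± 3.84 and 41.2 ± 5.10), named after their values were seen, went the other way. The summed intensity of the 8 CA3 markers was 599 to 664 in NIC CA1 and 874 to 978 in NIC CA3. The dentate granule marker Prox1 was higher in CA1 (log2 difference 0.73 ± 0.19, SE, limma adjusted p = 0.0267). Astrocyte genes were well measured in every group: the summed intensity of 13 homeostatic astrocyte genes ranged between 6754 and 10419 over the 8R arrays and between 6663 and 8285 over the NIC arrays. These ranges take all regions and fractions together, and the sums by group are given below. Pool 4 of the 8R groups was unlike the rest: the deviations of its 4 arrays from their group means correlated at 0.540 to 0.777 with each other. Among the reactive astrocyte genes this pool mattered most for Timp1, and results that turn on it are given with and without it.

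The promoters of 6 of the genes are shown because Vim, Gfap, Timp1, Anxa2 and Anxa3 rose in every region and RNA fraction while Aspg rose in none. They are RefSeq promoters on GRCr8, 250 bases before to 50 bases after the start used in the RefSeq promoter table, written 5′ to 3′ on the gene's strand, with matches to the AP-1 letters TGANTCA in capitals: Vim at chr17:81577011-81577310 (plus strand), Gfap at chr10:88361612-88361911 (minus), Timp1 at chrX:3771073-3771372 (minus), Anxa2 at chr8:78986002-78986301 (plus), Anxa3 at chr14:13085548-13085847 (minus) and Aspg at chr6:136997773-136998072 (plus).
Vim: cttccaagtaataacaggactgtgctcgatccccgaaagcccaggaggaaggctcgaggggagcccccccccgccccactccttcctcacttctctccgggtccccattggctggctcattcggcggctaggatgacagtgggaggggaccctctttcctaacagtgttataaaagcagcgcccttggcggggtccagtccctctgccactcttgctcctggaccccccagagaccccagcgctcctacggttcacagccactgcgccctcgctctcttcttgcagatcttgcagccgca
Gfap: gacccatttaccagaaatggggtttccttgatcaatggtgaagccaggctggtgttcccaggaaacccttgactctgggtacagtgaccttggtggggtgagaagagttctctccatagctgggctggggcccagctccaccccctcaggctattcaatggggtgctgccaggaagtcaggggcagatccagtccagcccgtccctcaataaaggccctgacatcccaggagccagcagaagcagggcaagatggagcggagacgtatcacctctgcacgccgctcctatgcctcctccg
Timp1: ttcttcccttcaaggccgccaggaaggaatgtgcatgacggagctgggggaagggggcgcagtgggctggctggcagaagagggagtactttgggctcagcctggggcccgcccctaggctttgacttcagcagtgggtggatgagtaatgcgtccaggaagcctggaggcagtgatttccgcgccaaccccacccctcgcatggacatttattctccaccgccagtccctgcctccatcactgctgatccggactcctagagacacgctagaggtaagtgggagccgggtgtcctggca
Anxa2: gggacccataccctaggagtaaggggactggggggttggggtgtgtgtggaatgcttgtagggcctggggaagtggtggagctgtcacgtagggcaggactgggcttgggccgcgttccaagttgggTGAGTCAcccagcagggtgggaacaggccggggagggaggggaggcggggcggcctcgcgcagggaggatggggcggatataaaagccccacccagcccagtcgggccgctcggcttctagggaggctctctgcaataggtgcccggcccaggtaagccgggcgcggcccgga
Anxa3: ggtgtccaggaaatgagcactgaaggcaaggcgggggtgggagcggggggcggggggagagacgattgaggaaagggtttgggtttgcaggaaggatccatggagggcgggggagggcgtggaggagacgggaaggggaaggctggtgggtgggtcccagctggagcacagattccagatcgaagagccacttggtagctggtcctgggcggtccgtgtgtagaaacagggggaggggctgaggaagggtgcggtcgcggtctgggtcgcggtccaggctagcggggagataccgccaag
Aspg: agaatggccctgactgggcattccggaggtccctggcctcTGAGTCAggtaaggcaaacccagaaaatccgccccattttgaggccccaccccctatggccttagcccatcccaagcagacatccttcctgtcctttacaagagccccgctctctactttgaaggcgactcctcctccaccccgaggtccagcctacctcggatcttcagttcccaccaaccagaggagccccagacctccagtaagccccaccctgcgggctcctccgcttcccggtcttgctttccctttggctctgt
Of the 9 genes, 8 had a promoter in the RefSeq table and S100a10 had none. The AP-1 letters, searched on both strands, stood in 3 of the 8 promoters, at 123 to 117 bases before the start in Anxa2, at 210 to 204 in Aspg and at 33 to 27 in Osmr, against 7.3% of 27457 rat promoters. STAT letters (TTCNNNGAA, both strands) were in none of the 8, against 8.7% of all promoters. Of 4 motifs searched, the heat shock element was also in none, against 0.7%, and NF-kB was in all 8, against 48.5%. That start lay inside the annotated gene in Timp1, Osmr, Cd44, Anxa3 and Aspg, so the AP-1 match of Osmr also lay inside its gene. The windows of Timp1 and Cd44 lay wholly inside their genes. These counts describe letters in a short window only.

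Differences between 8R and NIC arrays address how the genes changed after ischemia and 8 h of reperfusion. Of the 8 tested genes, 7 rose in CA1 total RNA, 6 in CA1 polysome RNA, 6 in CA3 total RNA and 6 in CA3 polysome RNA, and none fell in any of the 4 comparisons (limma, Benjamini-Hochberg adjusted p under 0.05 over all 12716 genes). Of all genes tested, 20.1% rose in CA1 total RNA, 4.87% in CA1 polysome RNA, 14.2% in CA3 total RNA and 2.38% in CA3 polysome RNA, and 6.15%, 3.46%, 1.34% and 0.275% fell in the same order. Of the genes called in CA1 polysome RNA, 58.5% were higher, but 49.5% after quantile normalization and 48.6% after median centring. The median log2 difference of the 8 genes was 0.89, 0.82, 0.85 and 0.77 in that order, beside 0.04, 0.01, 0.08 and 0.04 for all genes tested. These counts and medians are descriptions, since 3 of the 8 genes entered the test through their 8R values and the list was chosen with earlier results known. Vim, Gfap, Timp1, Anxa2 and Anxa3 passed the test in all 4 comparisons, S100a10 in 3, Cd44 in the 2 of CA1 and Aspg in none. Every gene that passed had all its 8R arrays above all its NIC arrays, a pattern that 24.5%, 13%, 20.2% and 13.2% of all genes showed in the same order.

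**Figure D1:**
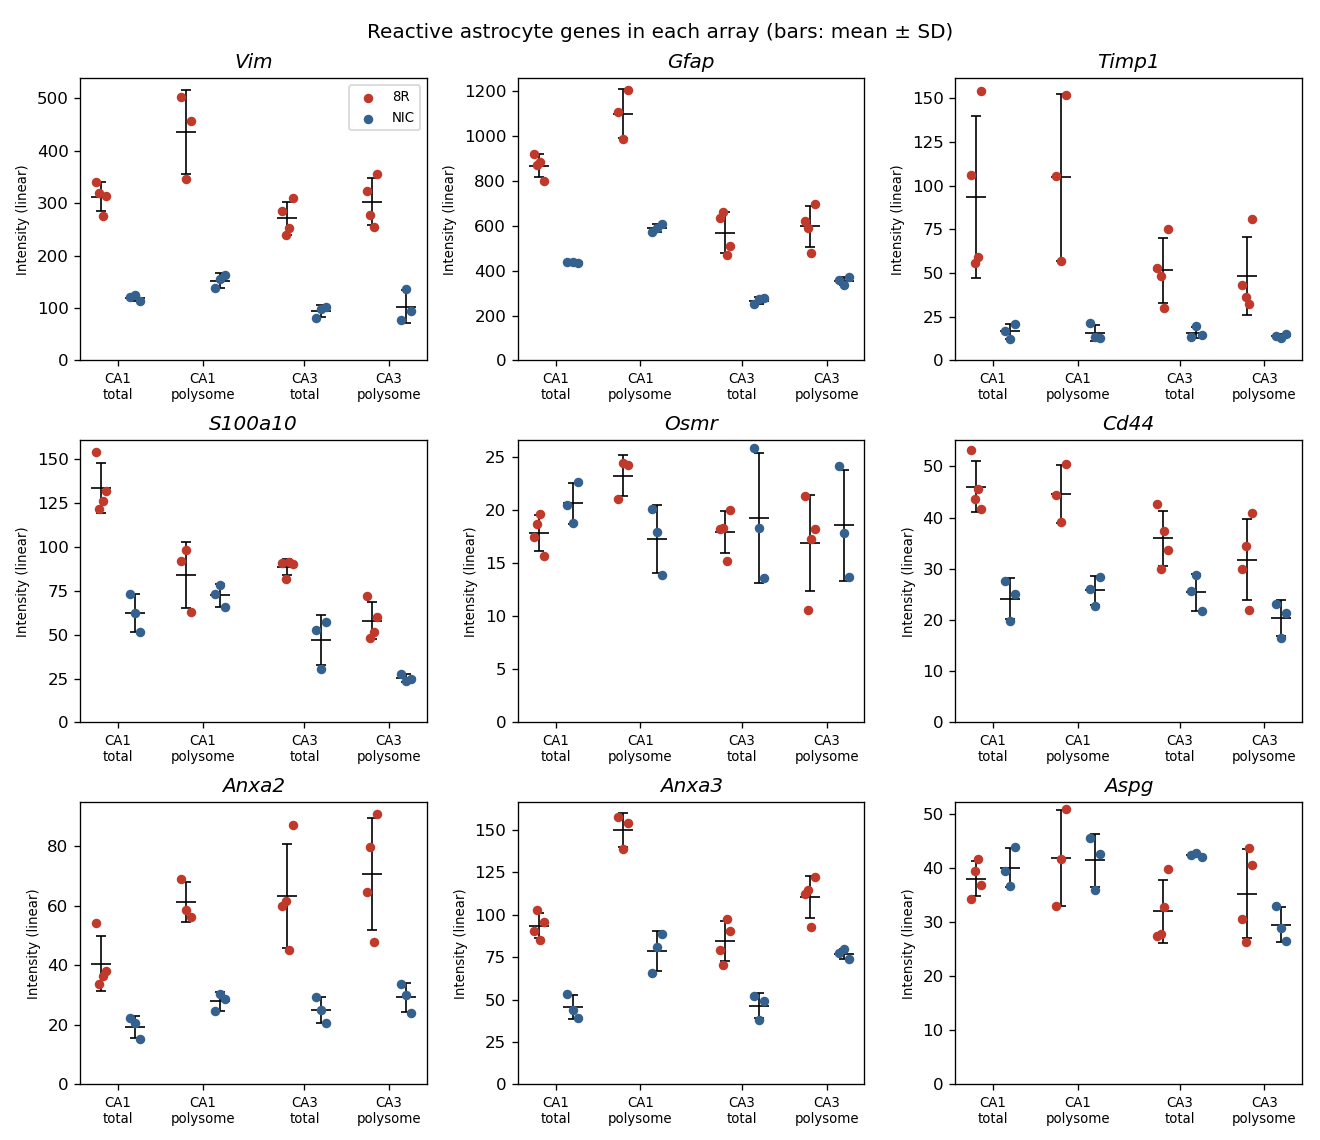
Intensity of each of the 9 genes in every array (vertical axis, linear scale as deposited), by region and RNA fraction, with 8R in red left of NIC in blue; bars give the mean ± SD of each group. The 8R and NIC points of Vim, Gfap, Timp1, Anxa2 and Anxa3 do not overlap in any column, while those of Osmr and Aspg largely do.

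Vim encodes vimentin, the filament protein of immature and reactive astrocytes. In CA1 total RNA it read 341, 319, 275 and 313 in the 8R pools, against 122, 124 and 113 in the NIC pools. In CA1 polysome RNA it read 503, 346 and 456 in 8R, against 137, 156 and 164 in NIC. Every 8R array of CA1 was above every NIC array in both fractions. In CA3 it read 284, 239, 252 and 309 in 8R total RNA, against 81.7, 97.6 and 103 in NIC, and 323, 278, 255 and 355 in 8R polysome RNA, against 76.6, 137 and 94.9 in NIC. The log2 differences were 1.27 ± 0.14 in CA1 total RNA, 1.41 ± 0.15 in CA1 polysome RNA, 1.38 ± 0.14 in CA3 total RNA and 1.45 ± 0.14 in CA3 polysome RNA (SE; limma adjusted p of 1.02e-07, 3.69e-07, 1.95e-07 and 8.57e-08). The arrays did not overlap in CA3 either, and the 4 differences lay close together.

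Gfap encodes the filament protein that defines the astrocyte cytoskeleton. In CA1 total RNA its intensity was 918, 870, 886 and 800 in 8R, against 438, 438 and 434 in NIC. Its CA1 polysome values were 1106, 985 and 1205 in 8R, against 574, 591 and 610 in NIC. The groups were far apart in both fractions, although Gfap was already high in the sham-operated rats. In CA3 it was 634, 660, 471 and 512 in 8R total RNA, against 251, 272 and 277 in NIC, and 622, 590, 479 and 698 in 8R polysome RNA, against 359, 335 and 370 in NIC. The log2 difference was 0.96 ± 0.11 in CA1 total RNA, 0.87 ± 0.12 in CA1 polysome RNA, 1.04 ± 0.11 in CA3 total RNA and 0.71 ± 0.11 in CA3 polysome RNA (SE; limma adjusted p of 2.09e-07, 1.72e-05, 3.95e-07 and 0.000285). Across the 8 groups the mean level of Gfap was highest in 8R CA1 polysome RNA (1099 ± 110) and lowest in NIC CA3 total RNA (267 ± 13.8, SD, n = 3 each), and 8R CA3 polysome RNA (597 ± 91.0, n = 4) and NIC CA1 polysome RNA (591 ± 17.9, n = 3) were neighbours in that order that did not differ beyond their spread.

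Timp1 encodes a secreted inhibitor of matrix metalloproteinases. In CA1 total RNA it read 106, 55.5, 59.2 and 154 in 8R, against 17, 12.2 and 20.7 in NIC. The polysome values of Timp1 in CA1 were 105, 56.7 and 152 in 8R, against 21.1, 13.4 and 13 in NIC. The highest 8R array of both fractions was that of pool 4. In CA3 it read 52.8, 48.4, 29.8 and 75.2 in 8R total RNA, against 13.3, 19.6 and 14.8 in NIC, and 43.3, 36.5, 32.6 and 81.1 in 8R polysome RNA, against 13.7, 12.8 and 15.1 in NIC. Pool 4 was again the highest in both, by 0.63 to 0.97 on the log2 scale above the mean of the other 8R pools over the 4 groups. The log2 difference was 1.66 ± 0.26 in CA1 total RNA, 1.85 ± 0.28 in CA1 polysome RNA, 1.05 ± 0.26 in CA3 total RNA and 1.05 ± 0.26 in CA3 polysome RNA (SE; limma adjusted p of 1.73e-05, 6.56e-05, 0.00642 and 0.0258). The call in CA3 polysome RNA was lost without 8R replicate 4 (0.83, adjusted p = 0.102) and without NIC replicate 1, 2 or 3 (adjusted p of 0.079, 0.088 and 0.0935), while the other 3 calls held whichever array was left out. It was also lost after quantile normalization (1.01, adjusted p = 0.052), quantile normalization within each fraction (1.01, 0.0502), median centring (0.95, 0.057) and with a pseudocount of 64 (0.51, 0.102), which makes 8 of 20 alternatives. Because the intensities of Timp1 in NIC were close to the pseudocount of 16, these differences understate ratios of the intensities themselves.

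S100a10 and Anxa2 encode the partners of a membrane complex that binds plasminogen and tissue plasminogen activator, and S100a10 is also a member of the A2 list of reactive astrocyte genes. S100a10 read 154, 122, 126 and 132 in 8R CA1 total RNA, against 73.0, 62.5 and 51.3 in NIC CA1 total RNA. The polysome values in CA1 were 91.8, 97.9 and 62.7 in 8R, against 73.4, 78.4 and 65.5 in NIC. The CA1 groups were separate in total RNA and overlapped in polysome RNA. In CA3 it read 90.5, 81.5, 91.3 and 90.1 in 8R total RNA, against 52.6, 30.5 and 57.0 in NIC, and 71.7, 48.2, 51.3 and 60.1 in 8R polysome RNA, against 27.6, 23.7 and 24.7 in NIC. The log2 difference was 0.94 ± 0.14 in CA1 total RNA, 0.16 ± 0.15 in CA1 polysome RNA, 0.76 ± 0.14 in CA3 total RNA and 0.83 ± 0.14 in CA3 polysome RNA (SE; limma adjusted p of 8.11e-06, 0.553, 0.000372 and 0.000841). S100a10 therefore passed the test everywhere but in CA1 polysome RNA.

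Anxa2 read 54.0, 33.6, 36.3 and 38.0 in 8R CA1 total RNA, against 22.3, 20.6 and 15.2 in NIC CA1 total RNA. Polysome RNA of CA1 gave 68.9, 58.4 and 56.2 in 8R, against 24.5, 30.4 and 28.6 in NIC. No arrays of the 2 conditions overlapped in either fraction of CA1. The 8R CA1 polysome arrays lay above the 8R CA1 total arrays by a narrow gap (56.2 against 54.0). How many of all genes had that order of fractions was not counted. In NIC CA1 the median of all genes was 0.20 higher in polysome RNA (log2). In CA3 it read 59.7, 61.5, 44.9 and 86.9 in 8R total RNA, against 29.2, 24.9 and 20.7 in NIC, and 64.4, 79.8, 47.7 and 90.8 in 8R polysome RNA, against 33.8, 29.9 and 24 in NIC. The log2 difference was 0.67 ± 0.15 in CA1 total RNA, 0.81 ± 0.17 in CA1 polysome RNA, 0.93 ± 0.15 in CA3 total RNA and 0.92 ± 0.15 in CA3 polysome RNA (SE; limma adjusted p of 0.00165, 0.00212, 0.000136 and 0.000871).

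Anxa3 encodes another calcium-dependent phospholipid-binding annexin. It read 90.3, 103, 85.1 and 95.7 in 8R CA1 total RNA, against 53.2, 44.0 and 39.4 in NIC CA1 total RNA. Its polysome values in CA1 were 157, 138 and 154 in 8R, against 65.5, 81.0 and 88.8 in NIC. The 2 conditions stood well apart in CA1. In CA3 it read 79.0, 70.5, 97.6 and 90.3 in 8R total RNA, against 52.0, 38.1 and 49.1 in NIC, and 112, 115, 92.9 and 122 in 8R polysome RNA, against 77.4, 79.7 and 73.9 in NIC. The log2 difference was 0.83 ± 0.11 in CA1 total RNA, 0.82 ± 0.12 in CA1 polysome RNA, 0.68 ± 0.11 in CA3 total RNA and 0.44 ± 0.11 in CA3 polysome RNA (SE; limma adjusted p of 2.16e-06, 4.66e-05, 0.000124 and 0.0318). The call in CA3 polysome RNA was the least secure: it was lost without any 1 of NIC replicates 1, 2 and 3 or of 8R replicates 1, 2 and 4, with adjusted p of up to 0.144 among these. It was also lost after median centring (0.33, adjusted p = 0.153), quantile normalization (0.39, 0.0877), quantile normalization within each fraction (0.41, 0.0679), in a fit of only the groups compared (0.44, 0.0727), with the pool as a random block (0.44, 0.0545) and without pool 4 (0.39, 0.0561). These are 12 of 21 alternatives, and the direction stayed the same in all 21.

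Cd44 encodes the receptor for hyaluronan, and Osmr the receptor subunit for oncostatin M, which pairs with gp130. Cd44 read 53.2, 43.7, 45.6 and 41.7 in 8R CA1 total RNA, against 27.6, 19.9 and 25 in NIC CA1 total RNA. In CA1 polysome RNA it read 44.5, 39.0 and 50.4 in 8R, against 26.1, 22.8 and 28.4 in NIC. Both CA1 fractions had all 8R arrays above the NIC arrays, with log2 differences of 0.63 ± 0.12 and 0.54 ± 0.13 (SE; limma adjusted p of 0.000194 and 0.00817). The polysome call was lost without 8R CA1 polysome replicate 3, which is pool 4 (0.47, adjusted p = 0.0639).

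In CA3, Cd44 read 42.7, 30, 37.4 and 33.7 in 8R total RNA, against 25.6, 28.9 and 21.7 in NIC, and 29.9, 34.5, 22 and 40.9 in 8R polysome RNA, against 23.2, 16.6 and 21.5 in NIC. The CA3 arrays were separate in total RNA by a small margin and overlapped in polysome RNA. The log2 differences of 0.32 ± 0.12 and 0.38 ± 0.12 did not pass the test (SE; limma adjusted p of 0.0625 and 0.0758). The total RNA difference of Cd44 in CA3 passed without 8R replicate 2 (0.38, adjusted p = 0.049) without pool 4 (0.34, adjusted p = 0.0268) and with array weights (0.38, adjusted p = 0.00498), and the polysome difference passed without 8R replicate 3 (0.49, adjusted p = 0.0222).

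Osmr read 17.5, 18.7, 19.7 and 15.7 in 8R CA1 total RNA, against 20.5, 18.8 and 22.6 in NIC CA1 total RNA. Its CA1 polysome values were 21.1, 24.5 and 24.3 in 8R, against 20.2, 18.0 and 13.9 in NIC. The 2 conditions overlapped in total RNA and were separate by a narrow gap in polysome RNA. In CA3, Osmr lay between 10.6 and 21.3 over the 8R arrays and between 13.6 and 25.8 over the NIC arrays, with overlap in both fractions. In a fit with no filter on dim genes its log2 difference in CA1 polysome RNA was 0.24 ± 0.13 (SE; limma adjusted p = 0.327), and in the other 3 comparisons it lay between -0.11 and -0.04. Its values were dim in every group, and none of its 4 differences passed the test.

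Aspg encodes an asparaginase listed among genes of reactive astrocytes. It read 34.3, 39.5, 41.7 and 37.0 in 8R CA1 total RNA, against 39.6, 36.8 and 44.0 in NIC CA1 total RNA. In CA1 polysome RNA it read 33.1, 41.8 and 51.0 in 8R, against 45.7, 36.0 and 42.7 in NIC. The 2 conditions overlapped in CA1, with log2 differences of -0.05 ± 0.12 and 0.00 ± 0.13 (SE; limma adjusted p of 0.781 and 0.992). In CA3 it read 27.5, 27.8, 32.9 and 39.9 in 8R total RNA, against 42.4, 42.9 and 42.1 in NIC, and 30.7, 26.3, 43.7 and 40.6 in 8R polysome RNA, against 33.0, 29.0 and 26.6 in NIC. Aspg was the one gene with all 8R arrays below the NIC arrays anywhere, in CA3 total RNA, where 4.42% of all genes had that pattern and the log2 difference of -0.29 ± 0.12 did not pass the test (limma adjusted p = 0.0925). It passed in 4 of 20 alternatives: without 8R CA3 total replicate 4 (-0.37, adjusted p = 0.0281), without pool 4 (-0.37, 0.0136), with array weights (-0.37, 0.00301) and after quantile normalization (-0.31, 0.0474). In CA3 polysome RNA the log2 difference was 0.16 ± 0.12 (adjusted p = 0.475).

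**Figure D2:**
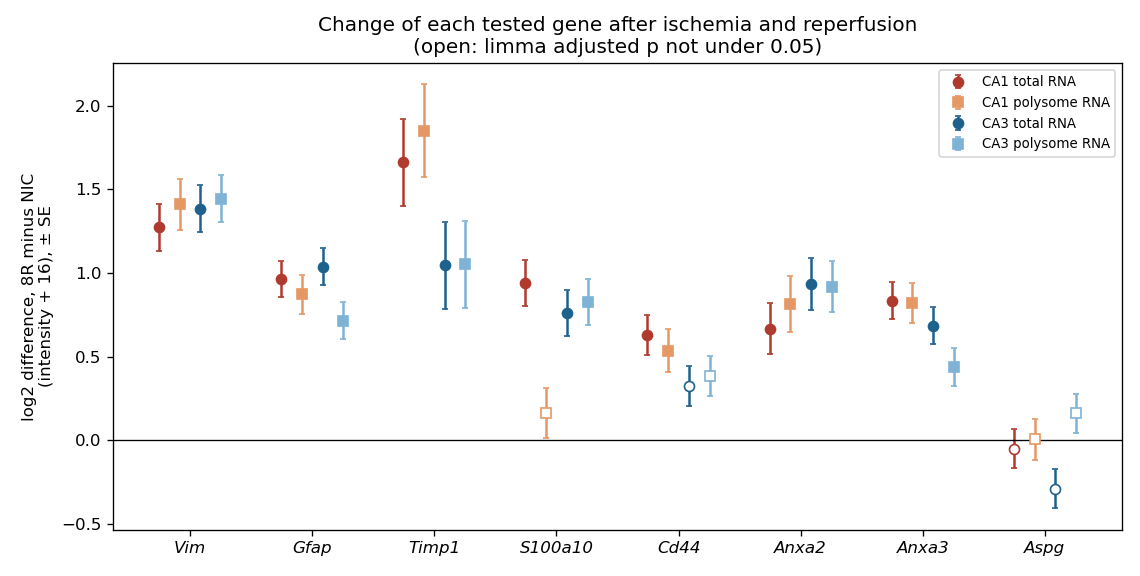
Difference between 8R and NIC for the 8 tested genes (vertical axis, log2 of intensity + 16, ± SE from limma) by region and RNA fraction; open symbols did not pass the adjusted p of 0.05. Vim lies between 1.27 and 1.45 in all 4 comparisons, S100a10 lies at 0.16 in CA1 polysome RNA and between 0.76 and 0.94 in the other 3, and Aspg lies around 0.

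Some markers of other cell types were also called. Of 13 microglia and macrophage markers, 10 were tested, and 3, 3, 3 and 2 of them rose in CA1 total, CA1 polysome, CA3 total and CA3 polysome RNA. Of all genes tested, 20.1%, 4.87%, 14.2% and 2.38% rose in the same order, and 6.15%, 3.46%, 1.34% and 0.275% fell. The same shares stand beside the counts of the other cell types below. Complement C1qb rose most often, by 0.63, 1.00, 0.49 and 0.96 (log2, limma adjusted p of 0.00155, 0.000107, 0.0197 and 0.000212). The summed intensity of the 13 markers was 635 to 729 in 8R CA1 total RNA, against 536 to 580 in NIC, and 609 to 699 in 8R CA3 total RNA, against 485 to 547 in NIC. It was 681 to 895 in 8R CA1 polysome RNA, against 553 to 579 in NIC, and 565 to 738 in 8R CA3 polysome RNA, against 475 to 484 in NIC. The microglial sum was thus higher in every 8R array than in every NIC array of its region and fraction. Single genes had that pattern in 24.5%, 13%, 20.2% and 13.2% of all genes in CA1 total, CA1 polysome, CA3 total and CA3 polysome RNA. The sum includes genes too dim to test and was not rescaled for the array medians, which differed in CA3 polysome RNA.

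Of 10 endothelial markers 8 had a probe set and 5 were tested, and only Esam in CA3 total RNA rose (0.29 ± 0.10, limma adjusted p = 0.0487). Their summed intensity was 227 to 251 in 8R CA1 total RNA, against 233 to 249 in NIC, and 254 to 267 in 8R CA3 total RNA, against 228 to 267 in NIC. In polysome RNA it was 245 to 299 in 8R CA1, against 263 to 276 in NIC CA1, and 215 to 250 in 8R CA3, against 198 to 206 in NIC CA3. The endothelial sums of the 2 conditions overlapped except in CA3 polysome RNA. Array medians in CA3 polysome RNA were 27.07 to 31.82 in 8R and 25.63 to 27.25 in NIC. The sums were not rescaled for this, and they include genes too dim to test. None of the 6 tested pericyte, fibroblast and meningeal markers passed in any of the 4 comparisons, and their sum was 368 to 406 in 8R CA1 total RNA, against 445 to 447 in NIC, and 366 to 441 in 8R CA3 total RNA, against 414 to 451 in NIC. In polysome RNA that sum was 418 to 520 in 8R CA1, against 403 to 458 in NIC CA1, and 347 to 470 in 8R CA3, against 323 to 367 in NIC CA3. It was therefore lower in 8R CA1 total RNA and overlapped in the other 3 comparisons. None of the 3 tested blood and neutrophil markers rose, and Mpo was lower in CA1 total RNA (-0.36 ± 0.11, limma adjusted p = 0.0181). The blood sum was 128 to 168 in 8R CA1 total RNA, against 147 to 184 in NIC, and 137 to 162 in 8R CA3 total RNA, against 157 to 160 in NIC. In polysome RNA the blood sum was 161 to 181 in 8R CA1, against 162 to 185 in NIC CA1, and 142 to 183 in 8R CA3, against 106 to 127 in NIC CA3. It was higher in 8R than in NIC without overlap in CA3 polysome RNA, where the array medians given above also differed. In that comparison 13.2% of all genes had all 8R arrays above all NIC arrays. The blood sum also includes genes too dim to test. Of 7 tested neuronal markers, 3 fell in CA1 total RNA (Syn1, Rbfox3 and Snap25), 3 fell in CA1 polysome RNA, 2 rose and 1 fell in CA3 total RNA, and none passed in CA3 polysome RNA.

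The 8 tested of 10 oligodendrocyte markers gave 1 that rose and 1 that fell in CA1 total RNA, 1 that fell in CA1 polysome RNA, 2 that rose in CA3 total RNA and 1 that rose in CA3 polysome RNA. The myelin gene Mobp rose by 0.36 in CA1 total RNA, 0.74 in CA3 total RNA and 0.58 in CA3 polysome RNA (log2; limma adjusted p of 0.0112, 2.06e-05 and 0.00174), and Mbp, the myelin basic protein gene, by 0.41 in CA3 total RNA (adjusted p = 0.0114). Opalin, another oligodendrocyte gene, fell by 0.59 in total and 0.52 in polysome RNA of CA1 (adjusted p of 0.000599 and 0.013). The oligodendrocyte sum was 2801 to 3251 in 8R CA1 total RNA, against 2962 to 3530 in NIC, and 2229 to 2516 in 8R CA3 total RNA, against 1761 to 2137 in NIC. In polysome RNA it was 2899 to 3608 in 8R CA1, against 3199 to 3976 in NIC CA1, and 2063 to 2296 in 8R CA3, against 1767 to 2242 in NIC CA3. It was thus higher without overlap in 8R CA3 total RNA and overlapped in the other 3. Of 4 tested oligodendrocyte precursor markers, Gpr17 fell in CA1 total RNA (-0.33, adjusted p = 0.0451) and no other call was made, and the 1 tested choroid plexus and ependymal marker passed in none. The part of these other cell types in the changes of the reactive astrocyte genes was not tested.

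The homeostatic astrocyte genes, which a resting astrocyte also expresses, were called in part. Of 13 tested, 4 rose and 1 fell in CA1 total RNA, 2 rose in CA1 polysome RNA, 2 rose in CA3 total RNA and 1 rose in CA3 polysome RNA. Of all genes tested, 20.1%, 4.87%, 14.2% and 2.38% rose in the same order, and 6.15% fell in CA1 total RNA. In CA1 total RNA the calcium-binding protein gene S100b rose by 0.48, the water channel gene Aqp4 by 0.40 and the glutamate transporter gene Slc1a3 by 0.35, while Atp1b2, a sodium pump subunit, fell by 0.40 (log2; limma adjusted p of 0.00292, 0.00785, 0.0219 and 0.0393). The connexin gene Gjb6 rose by 0.65 ± 0.20 in CA3 total RNA (adjusted p = 0.0239), and Ndrg2, a gene of mature astrocytes, by 0.34 and 0.30 in polysome RNA of CA1 and CA3 (adjusted p of 0.0037 and 0.0185). The list's median log2 difference was 0.17, 0.13, 0.17 and 0.12 over the 4 comparisons. The summed intensity was 7871 to 8926 in 8R CA1 total RNA, against 6951 to 7148 in NIC. In CA3 total RNA it was 6754 to 8347 in 8R, against 6663 to 6820 in NIC. In polysome RNA of CA1 it was 8715 to 10419, against 8039 to 8285, and in CA3 7618 to 8365, against 6867 to 7151. The sum was thus higher in 8R without overlap except in CA3 total RNA. It was not rescaled for the array medians, which differed in CA3 polysome RNA.

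Other genes of the published reactive astrocyte lists moved unevenly. Beside the counts below, 20.1%, 4.87%, 14.2% and 2.38% of all genes rose in CA1 total, CA1 polysome, CA3 total and CA3 polysome RNA. Of the pan-reactive genes other than those above, 6 were tested, and 2 rose in CA1 total RNA and 1 in each other comparison. Hspb1, a small heat shock protein gene, rose by 4.00 ± 0.31, 4.06 ± 0.33, 4.00 ± 0.31 and 3.68 ± 0.31 (log2, SE; limma adjusted p of 2.02e-10, 2.6e-09, 7.28e-10 and 5.62e-09) in CA1 total, CA1 polysome, CA3 total and CA3 polysome RNA. S1pr3, a sphingosine phosphate receptor gene, was the other one in CA1 total RNA (0.50 ± 0.13, adjusted p = 0.00535). Lcn2, a lipocalin gene named here after its values were seen, had log2 differences of -0.10 ± 0.12 in total RNA and -0.04 ± 0.13 in polysome RNA of CA1 (limma adjusted p of 0.561 and 0.9). In CA3 total RNA the difference was -0.08 ± 0.12 (limma adjusted p = 0.706). In CA3 polysome RNA Lcn2 was not called, but it read 34.3 to 35.1 in 8R, against 18.9 to 28.1 in NIC, without overlap. Of all genes, 13.2% had all 8R arrays above all NIC arrays there. Of 12 A1 genes only 4 were tested, and Fkbp5, a glucocorticoid-induced cochaperone gene, was the 1 that rose, in total RNA of CA1 (0.95) and CA3 (0.91). Of the A2 genes other than S100a10, 6 were tested and 3 rose in every comparison: the transcription factor gene Stat3, the prostaglandin synthase gene Ptgs2 and the lipopolysaccharide receptor gene Cd14. Ptgs2 rose by 2.39, 2.32, 1.55 and 1.27 and Cd14 by 0.47, 0.42, 0.40 and 0.51 in CA1 total, CA1 polysome, CA3 total and CA3 polysome RNA (log2). Ptgs2 and Hspb1 are also made by neurons, and Cd14 by microglia.

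The mRNA levels of 19 tested genes of gp130, JAK and STAT3 signalling were compared in the same way, and the activity of these proteins was not measured. Of these 19, 4 rose in CA1 total RNA, 4 in CA1 polysome RNA, 5 in CA3 total RNA and 3 in CA3 polysome RNA. Of all genes tested, 20.1%, 4.87%, 14.2% and 2.38% rose in the same order. The count of 4 of 19 in CA1 total RNA is thus about the share over all genes. The 1 that fell was Socs1, an inhibitor of JAK kinases, in CA3 total RNA (-0.43 ± 0.11, limma adjusted p = 0.0062), where 1.34% of all genes fell. Stat3 rose by 1.27 ± 0.15 in CA1 total RNA, 1.12 ± 0.16 in CA1 polysome RNA, 1.13 ± 0.15 in CA3 total RNA and 0.83 ± 0.15 in CA3 polysome RNA (log2, SE; limma adjusted p of 4.48e-07, 4.16e-05, 1.39e-05 and 0.00239). Il6r, the interleukin-6 receptor gene, also rose in all 4, by 0.48, 0.56, 0.46 and 0.60. Il6st, which encodes gp130 itself, rose in total RNA of CA1 (0.48 ± 0.11) and CA3 (0.50 ± 0.11; adjusted p of 0.00137 and 0.00208). Lifr, the leukemia inhibitory factor receptor gene, rose in CA3 total RNA (0.60 ± 0.11, adjusted p = 0.000368). In polysome RNA Cish, an inhibitor of cytokine signalling, rose by 0.39 in CA1 and 0.40 in CA3, and Cntfr, the ciliary neurotrophic factor receptor gene, by 0.44 in CA1 (adjusted p of 0.0102, 0.0168 and 0.0304). Jak2 rose by 0.82 ± 0.10 in CA1 total RNA and 0.86 ± 0.10 in CA3 total RNA (adjusted p of 6.1e-07 and 1.84e-06) and was not called in polysome RNA of either region. The change of Jak2 in polysome RNA was lower than in total RNA by a direct test in both regions, by -0.80 ± 0.15 in CA1 and -0.76 ± 0.14 in CA3 (log2, SE; limma adjusted p of 0.00708 and 0.0136). The ligand genes tested, Osm, Lif, Il11 and Ctf1, passed in none of the 4 comparisons, as the plot of pathway genes shows.

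**Figure D3:**
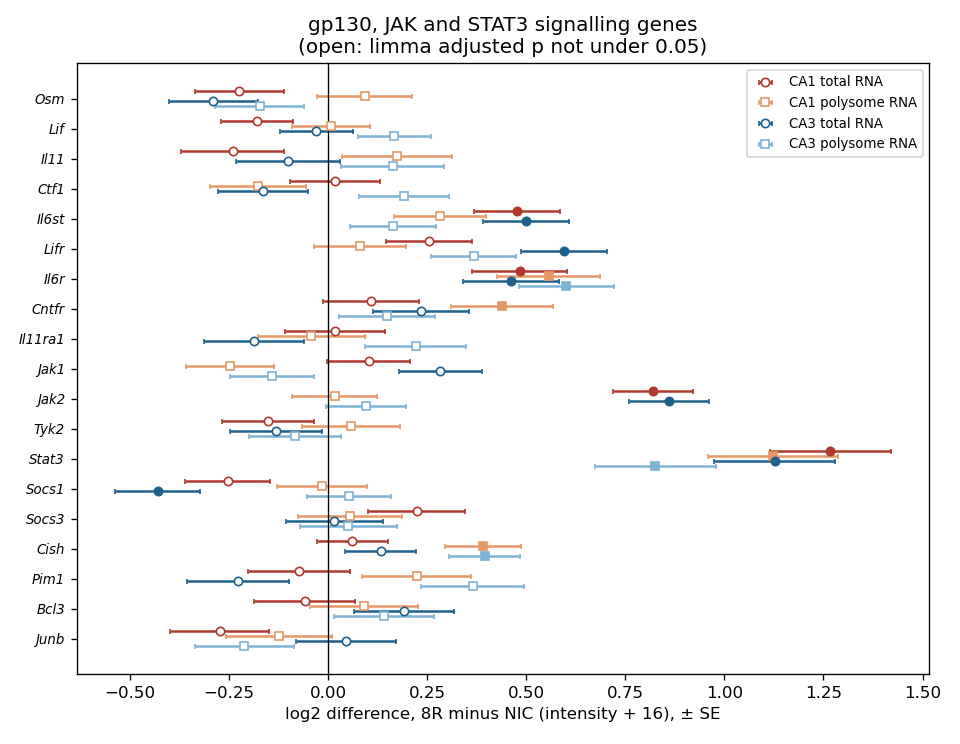
Difference between 8R and NIC for the 19 tested genes of gp130, JAK and STAT3 signalling (horizontal axis, log2 of intensity + 16, ± SE from limma) by region and RNA fraction; open symbols did not pass the adjusted p of 0.05. Stat3 and Il6r are filled in all 4 comparisons, and Jak2 is filled at 0.82 and 0.86 in total RNA and open in polysome RNA.

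Relatives of the 9 genes were called in part. Of all genes, 20.1% rose in CA1 total RNA, 4.87% in CA1 polysome RNA, 14.2% in CA3 total RNA and 2.38% in CA3 polysome RNA. In CA1, 6.15% of all genes fell in total RNA and 3.46% in polysome RNA. Of 11 other annexin and S100 genes tested, 2 rose and 1 fell in CA1 total RNA, 1 rose in CA1 polysome RNA, 1 rose in CA3 total RNA and none passed in CA3 polysome RNA. Anxa4 rose by 1.00 ± 0.13 in CA1 total RNA and 0.62 ± 0.13 in CA3 total RNA (log2, SE; limma adjusted p of 2.16e-06 and 0.00211). S100a16 rose by 0.39 and 0.47 in CA1 total and CA1 polysome RNA, and Anxa8 fell by 0.37 in CA1 total RNA (adjusted p = 0.0434). Of 10 other intermediate filament genes tested, 3 rose in CA1 total RNA, 1 rose and 2 fell in CA1 polysome RNA, 2 rose in CA3 total RNA and 1 rose in CA3 polysome RNA. Lmna, which encodes the nuclear lamins A and C, rose in all 4 comparisons, by 0.86, 0.67, 0.80 and 0.53. The neuronal filament gene Nefh rose by 0.38 in CA1 total RNA and 0.46 in CA3 total RNA (log2; limma adjusted p of 0.000809 and 0.000256), and Ina, another one, by 0.28 in CA1 total RNA (adjusted p = 0.016). Nefl and Nefm, of the same family, fell by 0.55 and 0.59 in CA1 polysome RNA (limma adjusted p of 0.0097 and 0.00543).

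Of 11 other metalloproteinase and inhibitor genes with a probe set, 5 were tested and the rest were too dim. Timp3 rose by 0.58 ± 0.16 in CA1 total RNA (log2, SE; limma adjusted p = 0.00825) and Timp2 by 0.38 ± 0.10 in CA1 polysome RNA (adjusted p = 0.02). Mmp9, untested and named after its values were seen, read 38.1 to 49.5 in 8R CA1 total RNA, against 9.38 to 16.7 in NIC. Its arrays were also separate in CA1 polysome and CA3 total RNA and overlapped in CA3 polysome RNA. Adamts4 fell by 0.37 in CA1 polysome RNA, and no gene of that list passed in CA3. Of 5 genes for ligands of CD44 and for the proteins that link it to actin, 3 rose in CA1 total RNA, 1 in CA1 polysome RNA, 3 in CA3 total RNA and none in CA3 polysome RNA. Of all genes, 20.1%, 4.87%, 14.2% and 2.38% rose in these comparisons. Msn, the moesin gene, rose by 1.37, 1.26 and 0.69 in the first 3 of these (limma adjusted p of 5.59e-06, 0.000261 and 0.0166). The radixin gene Rdx and the ezrin gene Ezr rose in total RNA of both regions, by 0.39 to 0.50.

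Whether the genes changed more in CA1 than in CA3 was tested directly. None of the 8 genes differed between regions in total RNA, where 0.0236% of all genes did, and none in polysome RNA, where 0.0157% did. The CA1 change minus the CA3 change in total RNA ranged between -0.27 ± 0.22 for Anxa2 and 0.62 ± 0.37 for Timp1 (log2, SE; limma adjusted p of 0.979 or more for all 8). In polysome RNA it was 0.80 ± 0.38 for Timp1, -0.66 ± 0.20 for S100a10 and 0.38 ± 0.16 for Anxa3 (adjusted p of 0.873, 0.683 and 0.854). Timp1 thus had the larger 8R values in CA1, but the regions did not differ by this test. At unadjusted p under 0.05, 0 of the 8 genes differed in total RNA, where 5.21% of all genes did, and 3 in polysome RNA, where 5.56% did.

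Total and polysome RNA of a pool came from 1 supernatant, so each pool gives its own polysome to total difference. In CA1 the polysome change of 1 gene, S100a10, differed from its total RNA change, where 3.82% of all genes did and 3.41% of all genes were lower in polysome RNA. The polysome value of S100a10 minus its total value was -0.66, -0.32 and -0.91 in the 3 8R pools of CA1 with both fractions, against 0.01, 0.27 and 0.28 in the NIC pools (log2). All 8R pools were below all NIC pools, a pattern that was not counted over all genes. The median of all genes in polysome against total RNA of NIC CA1 was itself 0.20. The difference of the 2 changes was -0.77 ± 0.20 (log2, SE; limma adjusted p = 0.0293), and with the pool as a block it was -0.79 (adjusted p = 0.00133), in a fit that called 20.8% of all genes and still 1 of the 8. It fell short of the threshold without pool 4 (-0.61, adjusted p = 0.0588) and when any of these single arrays was left out: 8R CA1 polysome replicate 3 (-0.61, 0.118), 8R CA1 total replicate 1 (-0.71, 0.076), NIC CA1 polysome replicate 1 or 2 (-0.77, 0.0687, and -0.73, 0.0674) and NIC CA1 total replicate 2 or 3 (-0.78, 0.0893, and -0.67, 0.0826). The direction was negative each time. For the other 7 genes the difference of the changes in CA1 lay between -0.09 and 0.19.

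In CA3 none of the 8 genes passed that test, where 0.165% of all genes did. The polysome minus total value of S100a10 was -0.28, -0.60, -0.67 and -0.48 in the 8R pools of CA3, against -0.65, -0.23 and -0.84 in the NIC pools (log2), with overlap. For Gfap it was -0.03, -0.16, 0.02 and 0.44 in the 8R pools, against 0.49, 0.29 and 0.40 in the NIC pools, so that 3 of 4 8R pools were below all NIC pools and pool 4 was not. For Aspg it was 0.10, -0.05, 0.29 and 0.02 in the 8R pools, against -0.25, -0.39 and -0.45 in the NIC pools, with no overlap. How many of all genes had such separate pools in CA3 was not counted. The difference of the changes was 0.45 ± 0.17 for Aspg and -0.32 ± 0.16 for Gfap (log2, SE; limma adjusted p of 0.145 and 0.236). With the pool as a random block the values were the same and the adjusted p was 0.0197 for Aspg and 0.0644 for Gfap. That fit called 17.2% of all genes, 2185 against 21 without the block, so 1 of 8 is no more than the share over all genes. Without pool 4 the Gfap difference was -0.45 (adjusted p = 0.0392), 1 of 8 genes where 9.89% of all genes passed.

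**Figure D4:**
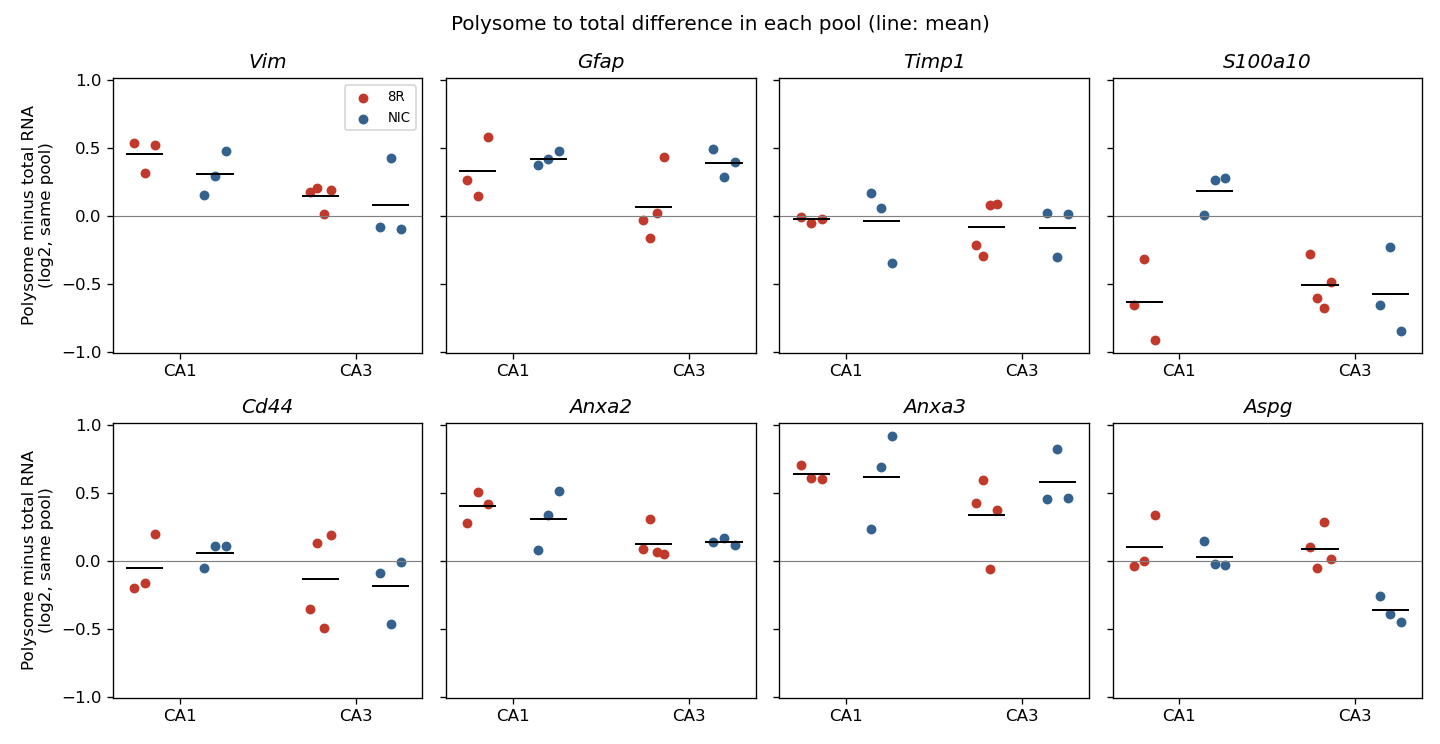
Polysome minus total RNA value of the same pool (vertical axis, log2 of intensity + 16) for the 8 tested genes by region, with 8R in red left of NIC in blue; lines are group means. The 8R pools of S100a10 in CA1 lie between -0.91 and -0.32 and its NIC pools between 0.01 and 0.28, while in CA3 both conditions lie below 0.

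In the sham-operated rats, 1 of the 8 genes differed between CA1 and CA3 in total RNA (3.47% of all genes did) and 4 in polysome RNA (28.4% of all genes did). Gfap was higher in CA1 in both fractions, by 0.68 ± 0.12 in total RNA and 0.71 ± 0.12 in polysome RNA (log2, SE; limma adjusted p of 0.000481 and 9.45e-05). In NIC polysome RNA S100a10 was higher in CA1 by 1.10 ± 0.15, Vim by 0.53 ± 0.15 and Aspg by 0.33 ± 0.13 (adjusted p of 6.48e-06, 0.011 and 0.0461). The median of all genes was itself 0.23 higher in CA1 in that comparison, and it was 0.00 after quantile normalization and 0.01 after median centring. The share of all genes called was 4.69% and 3.57% under these scalings, and 61.5% and 66.1% of the called genes were higher in CA1, against 97.4% on the deposited scale. Under both scalings Gfap and S100a10 remained called, and Vim (0.28 and 0.31, adjusted p of 0.473 and 0.375) and Aspg (0.10 and 0.11, adjusted p of 0.733 and 0.742) did not. Vim also lost its call without NIC CA3 polysome replicate 1 (0.37, adjusted p = 0.0921), and Aspg without any 1 of 5 of the 6 arrays.

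Polysome and total RNA of the sham-operated NIC pools were also compared, to give each gene's polysome level relative to its total level without ischemia. In NIC CA1, 2 of the 8 genes were higher in polysome RNA, where 39.4% of all genes were, and in NIC CA3 2 were higher (21.5% of all genes) and 2 lower (16.9%). Anxa3 was higher in polysome RNA by 0.62 ± 0.12 in CA1 and 0.58 ± 0.12 in CA3, and Gfap by 0.42 ± 0.12 and 0.39 ± 0.12 (log2, SE; limma adjusted p of 0.000127, 0.000488, 0.00421 and 0.0102). S100a10 and Aspg were lower in polysome RNA of CA3, by -0.57 ± 0.15 and -0.36 ± 0.13 (adjusted p of 0.00334 and 0.0235). Anxa3 and S100a10 thus stood on opposite sides in CA3. With the pool as a random block, Vim (0.31, adjusted p = 0.0179) and Anxa2 (0.31, adjusted p = 0.0268) also passed in CA1, which made 4 of 8 where 54% of all genes passed. The median of all genes was 0.20 higher in polysome RNA of NIC CA1, and after quantile normalization, which brought it to 0.04, Gfap was at 0.17 in CA1 (adjusted p = 0.301) and 0.30 in CA3 (adjusted p = 0.0593). Aspg lost its CA3 call in 5 of 6 fits that left out 1 array (adjusted p of up to 0.0884). Equal masses of the 2 kinds of RNA were labelled, so these differences are relative to the other genes of each fraction.

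The 8 genes varied together across arrays to differing degrees. Over the 27 arrays the correlation of log2 values between pairs of the 8 genes ranged from -0.27 to 0.88 with a median of 0.67 (28 pairs). After each group's mean was taken away the range was -0.27 to 0.52 and the median 0.22. These arrays share condition, region and pools, and the correlations are descriptions. The genes most like Vim over the 27 arrays were Gpd1 (r = 0.966), Cryab (0.959) and Hspb1 (0.950). Gpd1 encodes a glycerol phosphate dehydrogenase, and Cryab and Hspb1 small heat shock proteins. Those most like Gfap were Rcan2 (0.955), Ybx3 (0.940) and Ier5 (0.932), and those most like Timp1 were Bag3 (0.966), Cxadr (0.965) and Ppp1r15a (0.963). Gpd1 rose by 1.40 ± 0.09 in CA1 total RNA, 1.36 ± 0.10 in CA1 polysome RNA, 1.36 ± 0.09 in CA3 total RNA and 1.21 ± 0.09 in CA3 polysome RNA, and Cryab by 1.97, 2.22, 1.94 and 2.12 (log2, SE).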

How the data were processed

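The 27 arrays, each of a pool of 5 rats, were taken as intensity values on a linear scale that the authors deposited, with 36685 probe sets. PLIER and Affymetrix Expression Console made them, per the submitters' processing notes; the sources used here give no versions, background correction or scaling between arrays. Array medians ran between 25.6 and 38.1, and the scale was kept as deposited.

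From these, log2(intensity + 16) was computed here. The probe annotation gave 18511 probe sets 1 symbol, 575 several and 17599 none; the brightest single-symbol probe set stood for its gene. The dimmest genes, with means under the 30th percentile (5.39), were left out. One limma 3.58.1 fit (R 4.3.3) of 8 group means, moderated by empirical Bayes along the intensity trend (residual df 19, prior df 10.1), gave 12 comparisons, each Benjamini-Hochberg adjusted over 12716 genes. It was tested on simulated data first. The p-values measure the spread between pools, and the number of arrays limits the precision.

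Total and polysome RNA with the same pool number came from 1 supernatant per the series' design, which pairs them; their deviations from group means correlated at 0.28 to 0.77 in 8R (7 pairs) and -0.04 to 0.22 in NIC (6 pairs). The pool was therefore also fitted as a block. Whether CA1 and CA3 pools of the same number came from the same rats is not stated, so a block over regions was only an alternative. Other alternatives were pseudocounts of 1 and 64, other filters, quantile normalization, median centring, averaged probe sets, no trend, array weights, fits of only the groups compared, and leaving out arrays. All 9 genes are named in each comparison; from other lists, up to 4 called genes with the largest changes in a comparison may be named, with exceptions stated. The 9 genes and all lists were chosen with earlier results of these data known.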

Additional observations from a re-analysis of the deposited data

Results flagged for a closer look

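S100a10 in 8R CA3 total replicate 2 read 81.5, below the other 3 arrays of its group, which lay between 90.1 and 91.3, and this gap was 0.885 of the group's whole range. It was 1 of 27 sets of 4 arrays that were checked for a sample apart, and chance gives such a gap in about 1 in 20 sets. The other 3 arrays happened to lie very close together, and all 4 were above the NIC arrays.

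The change of S100a10 after ischemia differed between the RNA fractions of CA1: the polysome change minus the total change was -0.77 on the log2 scale (limma adjusted p = 0.0293), with all 3 8R pools below all 3 NIC pools in the polysome to total difference. How many of all genes had such a pool pattern was not counted. The fragility of the S100a10 result when single arrays are left out is given in the report, and its cause was not tested.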

How the results depend on the processing

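The 4 differences between 8R and NIC kept their direction for every gene that passed the test, under every alternative run. With the filter at the 50th percentile only 4 of the 9 genes were still tested, and 4 passed in total RNA and 3 in polysome RNA of CA1. With single arrays left out, the number of genes that passed was 7 throughout in CA1 total RNA, 5 to 6 in CA1 polysome RNA, 6 to 7 in CA3 total RNA (8 of 8 with array weights) and 4 to 7 in CA3 polysome RNA. The range in CA3 polysome RNA comes from Timp1, Anxa3 and Cd44, whose values are in the report. Aspg in CA1 polysome RNA, at 0.00, changed sign: it was -0.045 after quantile normalization, -0.048 after median centring, -0.045 after quantile normalization within each fraction (chosen after seeing the data), -0.10 with array weights, -0.017 with the block over regions, -0.11 without pool 4, and -0.11 to 0.12 with single arrays left out.

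In the NIC comparison of CA1 with CA3 polysome RNA, 4 genes passed, but 2 after quantile normalization, 2 after median centring, 2 after quantile normalization within each fraction (4.69%, 3.57% and 4.8% of all genes), and 2 to 4 with single arrays left out. In NIC polysome against total RNA, 2 genes passed in CA1, but 1 after either quantile normalization, 4 with array weights and 4 in a fit of only those groups. In CA3 4 passed, but 2 after quantile normalization. The difference between polysome and total changes in CA1 passed for 1 gene, S100a10, but for 0 without pool 4 and for 0 to 1 with single arrays left out. In CA3 it passed for 0 genes, but for 2 with array weights (17.3% of all genes), 1 without pool 4 (9.89%) and 0 to 1 with single arrays left out. The causes were not tested.

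The block pairs the 2 RNA fractions of a pool. With it, 4 genes instead of 2 passed in NIC polysome against total RNA of CA1 (random block and fixed block), and in the CA3 difference of changes 1 passed with the random block, 1 with the block over regions and 2 with the fixed block, where 17.2%, 10.7% and 22.2% of all genes did. In NIC CA1 the random and fixed blocks called 54% and 53.6% of all genes. It also ended the call of Anxa3 in CA3 polysome RNA (0.44, adjusted p = 0.0545) and changed no other call of the 8 genes.

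Over all genes, the number called between 8R and NIC was 3343 in CA1 total RNA (2216 without NIC CA1 total replicate 2), 1975 in CA3 total RNA (976 to 4746 over the alternatives), 1059 in CA1 polysome RNA (423 to 2197) and 338 in CA3 polysome RNA (89 to 743). The share of called genes that were higher was 76.6% in CA1 total RNA and 91.4% in CA3 total RNA, but 54.1% and 66.3% after quantile normalization, 58.5% in CA1 polysome RNA but 49.5% after quantile normalization and 48.6% after median centring, and 89.6% in CA3 polysome RNA but 72.7% after quantile normalization and 63.3% after median centring. Median centring moved the median of all genes in CA3 polysome RNA from 0.04 to -0.07. Osmr, Cd44, Timp1 and Anxa2 were dim in NIC, near the pseudocount, and 3 to 4 pools a group limit every test.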
